A study of Mus musculus with 6 samples.

Results

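The genes described here are 31 genes of sterol and fatty acid synthesis and of the SREBP system that regulates them, chosen by name. The choice was made with earlier results of these data known. The 31 comprised 18 genes of cholesterol synthesis steps, 6 genes of fatty acid steps and 7 genes of SREBP regulation. Of the 31, 30 were represented by a single-gene probe set among 19937 genes tested, and Acat2, a cytosolic acetyl-CoA acetyltransferase at the entry of the pathway, was not analysed here. Total RNA was hybridised to 6 Affymetrix arrays and came from V6.5 mouse embryonic stem cells kept in serum with LIF, a cytokine that holds these cells undifferentiated. Of the arrays, 3 were of cells treated for 24 h with CHIR99021 at 3 µM, which blocks GSK3 and thereby keeps β-catenin from degradation. The other 3 were of cells treated for 24 h with XAV939, a tankyrase inhibitor that lowers β-catenin. The XAV939 dose reads 3 µM in the sample labels and 1 µM in the treatment protocol. Both groups shared 1 knock-in line, labelled Ctnnb1-BioFLneo;BirA, in which β-catenin carries a biotin tag and a 3xFLAG tag, so every array carried the tagged allele. The cells were maintained with feeder cells from DR4 mice, and without untreated arrays in the analysis a difference cannot be credited to one compound over the other. Nothing in the labels ties the replicates to separate cultures, so p-values measure the spread between these arrays, which may be technical.

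Cells make cholesterol from acetyl-CoA through mevalonate, farnesyl diphosphate, squalene and lanosterol, and a last series of enzymes trims and rearranges lanosterol into cholesterol. SREBP transcription factors are held in the endoplasmic reticulum by SCAP and INSIG proteins when sterol is plentiful and travel to the Golgi for cleavage when it is scarce, after which they raise transcription of genes for sterol and fatty acid synthesis. Embryonic stem cells divide rapidly and need membrane lipid, and stearoyl-CoA desaturases also supply the monounsaturated fatty acid that is attached to Wnt ligands.

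Array medians lay between 5.67 and 5.71 on the log2 scale. XAV939 replicate 1 stood apart from the other XAV939 arrays on the second principal component, which held 17.5% of the variance, and its values touch several results below. The treatments were checked by Wnt/β-catenin targets. Axin2 was higher with CHIR99021 by 1.91 ± 0.09 log2 units (SE, 3 arrays per treatment), Cdx2 by 1.63 ± 0.10, Cdx1 by 1.62 ± 0.18, Sp5 by 1.35 ± 0.14 and Lef1 by 0.69 ± 0.06, all past the threshold. The stem cell markers Pou5f1, Sox2, Nanog, Zfp42, Dppa5a, Esrrb, Lin28a and Sall4 had a median log2 level of 10.51, against 6.07 for all genes. Of these 8, Esrrb rose by 0.60 ± 0.06, Nanog by 0.49 ± 0.05 and Zfp42 by 0.25 ± 0.06, Lin28a fell by 0.21 and Sall4 fell by 0.20, and 3 did not pass. That is 37.5% called higher and 25% lower, against 5.31% and 4.34% of all genes. The call of Zfp42 was lost in 4 of 15 alternatives (adjusted p up to 0.0820), that of Lin28a in 7 (up to 0.0842) and that of Sall4 in 8 (up to 0.169), each including the fit without CHIR99021 replicate 1.

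With CHIR99021, 9 of the 30 measured members rose and none fell at an adjusted p below 0.05 in limma's moderated test over all genes, and 21 did not pass. Over all genes, 5.31% were called higher and 4.34% lower, 9.65% in all, beside 30% of members called higher. Since the members were chosen with earlier results of these data known, this contrast is no test of the pathway. All 30 members lay above the median level, and of the 9969 genes at or above it 8.87% were called higher and 7.06% lower. At an unadjusted p below 0.05, 14 members were higher and 1 was lower. The members that rose were Tm7sf2, Msmo1, Nsdhl, Hsd17b7, Ebp and Sc5d of cholesterol synthesis, the desaturase genes Scd1 and Scd2, and Stard4. The median log2 difference of the 30 members, CHIR99021 minus XAV939, was 0.12, against 0.0066 over all genes. The arrays of the treatments were fully separate for 15 members with CHIR99021 higher and for 1 with it lower, against 14.1% and 11% of all genes (25.1% together). All changes were below 2-fold, between 1.18-fold and 1.64-fold. Without CHIR99021 replicate 1, or without replicate 2, 6 members rose, and without XAV939 replicate 1, 10 did.

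**Figure D1:**
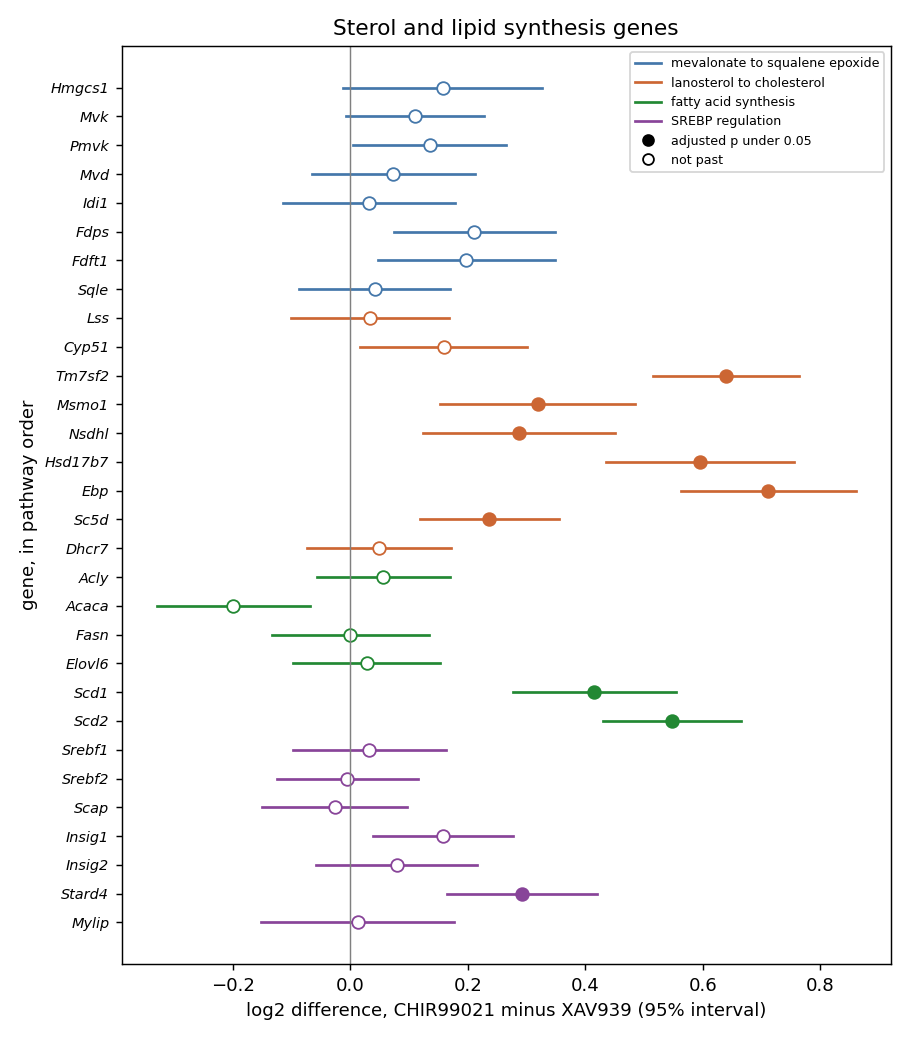
Log2 difference (x axis, CHIR99021 minus XAV939) with its 95% interval for each of the 30 measured members, listed down the page in pathway order and coloured by stage, with filled points for an adjusted p below 0.05. The filled points lie among the genes that act after Cyp51, at Scd1 and Scd2, and at Stard4, between 0.24 and 0.71.

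The genes of cholesterol synthesis that rose lay next to each other in the pathway. When the 17 measured genes were divided at lanosterol, a division by textbook enzyme order made after the values were seen, 6 of the 9 genes from lanosterol synthase onward rose and none of the 8 earlier genes did (3 of the 8 at an unadjusted p below 0.05 in limma). The count of the earlier genes was not 0 in every fit: Fdps passed in 4 of 15 alternatives (the filter on level, the trended fit, array weights and without XAV939 replicate 1), Fdft1 without XAV939 replicate 2, and Idi1 with its probe sets averaged. The median log2 difference was 0.29 for the later stage and 0.12 for the earlier one. Whether the stages differ was not tested. All 17 had a positive difference, between 0.031 and 0.71, and so did 10568 of the 19937 genes tested. Without XAV939 replicate 1, the differences of Idi1, Sqle and Lss were -0.037, -0.0020 and -0.016. That of Idi1 was also negative with array weights (-0.018).

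Ebp, the isomerase that shifts the double bond in the sterol ring, had the largest difference of the 30. Its log2 levels were 7.81, 7.85 and 7.87 with CHIR99021, against 7.01, 7.11 and 7.26 with XAV939. The 3 CHIR99021 arrays lay close together and above every XAV939 array, and the difference was 0.71 ± 0.07 (1.64-fold, limma adjusted p = 7.31e-05). Tm7sf2, the sterol reductase that acts on the product of Cyp51, had levels of 7.63, 7.51 and 7.66 with CHIR99021, against 6.94, 6.97 and 6.97 with XAV939. The groups did not overlap, the XAV939 arrays were nearly level, and the difference was 0.64 ± 0.06 (1.56-fold, limma adjusted p = 4.27e-05).

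Hsd17b7, the keto-reductase that ends the removal of the methyl groups next to the sterol hydroxyl and that can also reduce estrone, had levels of 8.41, 8.49 and 8.34 with CHIR99021, against 7.67, 7.88 and 7.89 with XAV939. The groups did not overlap and XAV939 replicate 1 was the lowest array. The difference was 0.60 ± 0.07 (1.51-fold, limma adjusted p = 3.82e-04). Ebp, Tm7sf2 and Hsd17b7 kept their call in all 15 alternatives run for single genes, and Hsd17b7 differed by 0.52 without XAV939 replicate 1.

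The other enzymes of methyl group removal changed less. Msmo1, the methylsterol oxidase that starts it, had levels of 11.35, 11.34 and 11.23 with CHIR99021, against 10.85, 11.13 and 10.99 with XAV939, a difference of 0.32 ± 0.07 (1.25-fold, limma adjusted p = 0.0219). The XAV939 arrays spread more widely than the CHIR99021 arrays, without overlap. Nsdhl, the decarboxylating dehydrogenase of the same reaction series, had levels of 8.27, 8.28 and 8.45 with CHIR99021, against 8.07, 8.14 and 7.92 with XAV939, a difference of 0.29 ± 0.07 (1.22-fold, limma adjusted p = 0.0335). CHIR99021 replicate 3 was highest and XAV939 replicate 3 lowest. Sc5d, the desaturase that follows Ebp, had levels of 8.19, 8.21 and 8.25 with CHIR99021, against 7.920, 7.998 and 8.026 with XAV939, a difference of 0.24 ± 0.05 (1.18-fold, limma adjusted p = 0.0178). Its groups were tight and separate. The calls of these 3 genes depended on single arrays and on the features tested, since with all probe sets tested the adjusted p was 0.108 for Msmo1, 0.138 for Nsdhl and 0.0603 for Sc5d. That of Msmo1 did not hold when CHIR99021 replicate 1, CHIR99021 replicate 2 or XAV939 replicate 3 was left out (adjusted p = 0.0678 to 0.0945), that of Nsdhl when any 1 CHIR99021 array or XAV939 replicate 3 was left out (0.0602 to 0.122), and that of Sc5d when any 1 CHIR99021 array or XAV939 replicate 2 was left out (0.0501 to 0.0674).

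The later genes that did not pass were Lss, Cyp51 and Dhcr7. Cyp51, which removes the first methyl group of lanosterol, had a difference of 0.16 ± 0.06 (adjusted p = 0.182) with levels of 8.12 to 8.22 with CHIR99021, against 7.91 to 8.10 with XAV939. Its groups did not overlap, but the CHIR99021 minimum lay only just above the XAV939 maximum. Lss, the lanosterol synthase, differed by 0.034 (95% interval -0.10 to 0.17), and Dhcr7, the last reductase of the pathway, by 0.049 (95% interval -0.074 to 0.17). The intervals of Lss and Dhcr7 lie below the estimates for Ebp, Tm7sf2 and Hsd17b7.

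**Figure D2:**
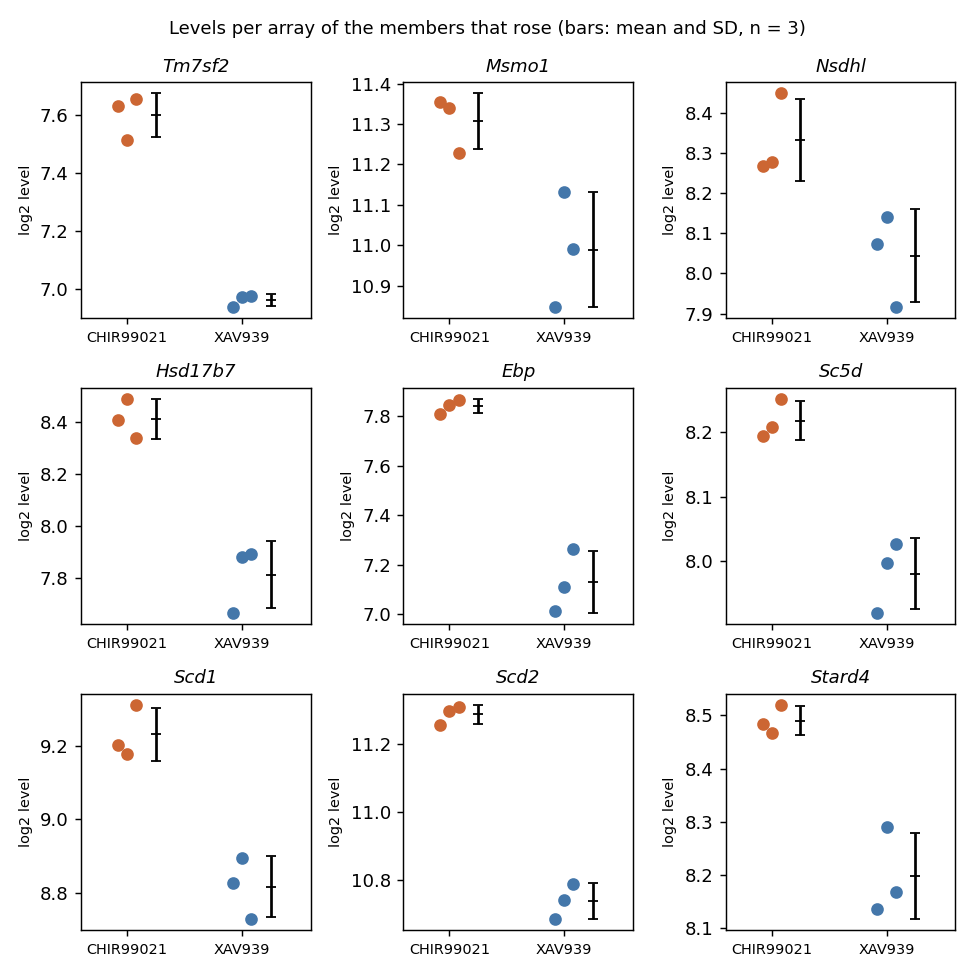
Log2 level (y axis, a scale of its own per panel, not starting at 0) on each array for the 9 members that rose, CHIR99021 left and XAV939 right, with bars for the mean and SD of 3 arrays. In each panel all CHIR99021 points lie above all XAV939 points, with the widest gaps for Ebp, Tm7sf2 and Scd2.

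Promoter windows, 250 bases before to 50 bases after the gene start, were taken from RefSeq (GRCm38.p6) for 24 of the 30 members, while Fdft1, Fdps, Scd1, Scd2, Sqle and Stard4 were not in the table. Those of Tm7sf2 and Ebp are shown because these genes had the smallest p of the cholesterol group, and each lies on the minus strand and reads 5′ to 3′ toward the gene. Capitals mark the NF-Y box CCAAT and the GC box GGGCGG on either strand. These were the motifs found of 5 searched, the others being the sterol response element core TCACNCCAC, the E-box CACGTG and the TCF/LEF motif CTTTGAT. In Tm7sf2 (chr19:6067801-6068100) the NF-Y box, read as ATTGG, starts 47 bases before the gene start, and the GC boxes, which do not overlap, start 123 and 114 bases before it. In Ebp (chrX:8193463-8193762) NF-Y boxes start 170 and 55 bases before the gene start and the GC box 33 bases before it.
Tm7sf2: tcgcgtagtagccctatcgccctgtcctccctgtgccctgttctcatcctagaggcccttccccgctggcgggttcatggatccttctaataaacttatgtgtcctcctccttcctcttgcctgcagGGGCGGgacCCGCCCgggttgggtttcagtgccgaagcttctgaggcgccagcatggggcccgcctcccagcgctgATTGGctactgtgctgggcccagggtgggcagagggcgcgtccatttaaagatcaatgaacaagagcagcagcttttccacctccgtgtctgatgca
Ebp: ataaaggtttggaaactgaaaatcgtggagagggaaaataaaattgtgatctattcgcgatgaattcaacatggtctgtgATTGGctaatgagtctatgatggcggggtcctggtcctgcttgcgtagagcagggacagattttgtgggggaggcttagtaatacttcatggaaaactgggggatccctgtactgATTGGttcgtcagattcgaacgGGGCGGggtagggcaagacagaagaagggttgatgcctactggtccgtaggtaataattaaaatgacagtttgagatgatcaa

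The boxes in those windows recurred across the members. A CCAAT box on either strand was present in the windows of 21 of the 24 members (87.5%), among them all 6 cholesterol genes that rose, against 41.7% of the 15613 tested genes with a window. A GC box was present in 20 of 24 (83.3%), again including those 6, against 52.9% of tested genes. Members that did not pass carried both boxes too, such as Lss, Mvk, Mvd and Srebf2. NF-Y and Sp factors, which bind these boxes, are known partners of SREBP at sterol genes. An E-box occurred in 5 of 24 (20.8%), namely Dhcr7, Hsd17b7, Insig1, Sc5d and Scap, against 9.5% of tested genes. The TCF/LEF motif occurred in none of the 24 and in 3.71% of tested genes, which says only that these letters are not in these windows. Variants of the sterol response element core TCACNCCAC were not searched, and members without a window were not covered. The exact letters occurred in 1 of 24 and in 1.4% of tested genes. That member was Hmgcs1, and its site (chr13:119690204-119690233, plus strand) is shown with the core in capitals, starting 137 bases before the gene start, a sequence chosen after the matches were seen. A motif match is a description of sequence and no binding was measured.
Hmgcs1: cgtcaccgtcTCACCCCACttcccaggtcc

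None of the 8 earlier genes, from acetyl-CoA condensation to squalene epoxide, passed the threshold. Hmgcs1, the synthase that makes HMG-CoA, had levels of 10.81, 10.85 and 10.64 with CHIR99021, against 10.48, 10.71 and 10.64 with XAV939, a difference of 0.16 ± 0.08 (adjusted p = 0.286). CHIR99021 replicate 3 and XAV939 replicates 2 and 3 overlapped. The mevalonate kinase gene Mvk differed by 0.11 ± 0.05, the phosphomevalonate kinase gene Pmvk by 0.13 ± 0.06 and the decarboxylase gene Mvd by 0.073 ± 0.062, with adjusted p of 0.284, 0.226 and 0.615 in limma.

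Fdps and Fdft1, which make farnesyl diphosphate and squalene, came nearest to the threshold. Fdps had levels of 9.66, 9.72 and 9.74 with CHIR99021, against 9.60, 9.40 and 9.48 with XAV939, a difference of 0.21 ± 0.06 (1.16-fold, limma adjusted p = 0.0614). The groups did not overlap, with XAV939 replicate 1 closest to the CHIR99021 arrays, and without that array the adjusted p was 0.0152. Fdft1 had levels of 10.08, 10.08 and 10.04 with CHIR99021, against 9.74, 10.00 and 9.87 with XAV939, a difference of 0.20 ± 0.07 (adjusted p = 0.113). Here XAV939 replicate 1 was the lowest array, and without XAV939 replicate 2 the adjusted p was 0.0419. Its second probe set gave 0.22. Sqle, the squalene epoxidase, differed by 0.042 (95% interval -0.087 to 0.17).

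Idi1, the isomerase of isopentenyl diphosphate, gave different values on its probe sets. The brighter one, used for the gene, differed by 0.031 ± 0.066, with levels of 9.92 to 9.94 with CHIR99021, against 9.76 to 10.01 with XAV939. The other, with a mean log2 level of 7.19, differed by 0.57 ± 0.14 when all 34760 probe sets were tested together (adjusted p = 0.0910). With the mean of both, the difference of Idi1 was 0.30 (adjusted p = 0.0184). Which of them follows the Idi1 transcript was not tested.

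Of the 6 genes of the fatty acid steps, Scd1 and Scd2 rose and Acly, Acaca, Fasn and Elovl6 did not pass. Scd2, the stearoyl-CoA desaturase that places a double bond in saturated acyl chains, had levels of 11.26, 11.30 and 11.31 with CHIR99021, against 10.69, 10.74 and 10.79 with XAV939. The arrays of each treatment lay within about 0.1 of each other and far from the other treatment, with a difference of 0.55 ± 0.05 (1.46-fold, limma adjusted p = 8.46e-05). Scd1, its paralogue, had levels of 9.20, 9.18 and 9.31 with CHIR99021, against 8.83, 8.90 and 8.73 with XAV939, a difference of 0.42 ± 0.06 (1.33-fold, limma adjusted p = 0.00160) without overlap. Both kept their call in all 15 alternatives. Of the other paralogues, Scd3 differed by 0.15 ± 0.05 (adjusted p = 0.140) and Scd4 by 0.023 ± 0.070. Whether probes of these similar genes detect each other's transcripts was not tested.

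The other 4 genes of the fatty acid steps did not pass. Fasn, the fatty acid synthase, had levels of 10.10, 10.10 and 10.16 with CHIR99021, against 10.23, 10.05 and 10.09 with XAV939, and its difference had a 95% interval of -0.13 to 0.13. Acly, which makes cytosolic acetyl-CoA from citrate, differed by 0.056 (95% interval -0.056 to 0.17), and Elovl6, an elongase of saturated chains, by 0.028 (95% interval -0.098 to 0.15). Acaca, the acetyl-CoA carboxylase that commits carbon to fatty acids, was the member with the lowest difference. Its levels were 8.65, 8.69 and 8.74 with CHIR99021, against 8.82, 8.98 and 8.87 with XAV939. The groups did not overlap, and the difference of -0.20 ± 0.06 missed the threshold (limma adjusted p = 0.0619). Its second probe set gave -0.25, and without XAV939 replicate 1 the adjusted p of Acaca was 0.0348.

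**Figure D3:**
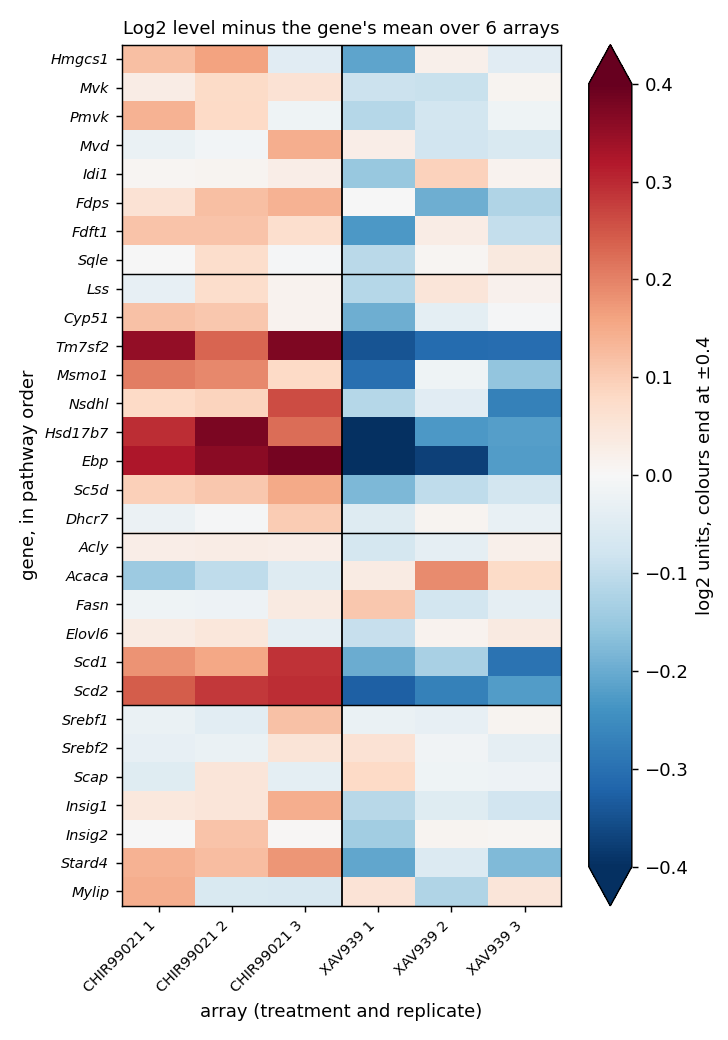
Log2 level of each of the 30 members minus that gene's mean over the 6 arrays (colour), with arrays across the page, CHIR99021 left of the line, and genes down it in pathway order. The rows of Tm7sf2, Hsd17b7, Ebp, Scd1 and Scd2 show the strongest contrast between treatments, and XAV939 replicate 1 is the lowest array for many cholesterol genes.

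Of the 7 genes of SREBP regulation, 1 rose (14.3%), none fell and 6 did not pass (Stard4 and Insig1 alone had an unadjusted p below 0.05 in limma, both higher). Srebf2, whose product favours sterol genes, had levels of 9.48, 9.49 and 9.57 with CHIR99021, against 9.57, 9.50 and 9.48 with XAV939, a difference of -0.0051 ± 0.0541 (95% interval -0.13 to 0.12). Srebf1, whose products favour fatty acid genes, differed by 0.033 (95% interval -0.097 to 0.16), and Scap, the sterol-sensing escort of SREBP, by -0.027 (95% interval -0.15 to 0.097). These intervals bound differences in transcript level and do not cover protein or cleavage. Insig1, which retains SCAP and is itself a SREBP target, had levels of 9.92, 9.93 and 10.03 with CHIR99021, against 9.77, 9.83 and 9.81 with XAV939. The groups did not overlap, and the difference of 0.16 ± 0.05 did not pass (limma adjusted p = 0.109). Insig2, its relative, differed by 0.079 ± 0.062 with overlapping groups.

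Stard4, a cytosolic carrier of sterol that is also a SREBP target, was the member of this group that rose. Its levels were 8.48, 8.47 and 8.52 with CHIR99021, against 8.14, 8.29 and 8.17 with XAV939, a difference of 0.29 ± 0.06 (1.22-fold, limma adjusted p = 0.00820). The groups did not overlap and the call held in all 15 alternatives (adjusted p = 0.00614 to 0.0437). Mylip, a ubiquitin ligase induced by the sterol receptor LXR that directs the LDL receptor to degradation, differed by 0.012 (95% interval -0.15 to 0.18).

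XAV939 replicate 1 was the lowest of the 6 arrays for 13 of the 17 measured cholesterol genes and for 19 of the 30 members. The median over the cholesterol genes of the log2 level minus the gene's mean was 0.081 to 0.11 on the CHIR99021 arrays, against -0.15 on XAV939 replicate 1 and -0.060 and -0.046 on the other XAV939 arrays. Without that array the median log2 difference of the cholesterol genes was 0.11, against 0.16 with it, and 7 of the 17 rose.

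**Figure D4:**
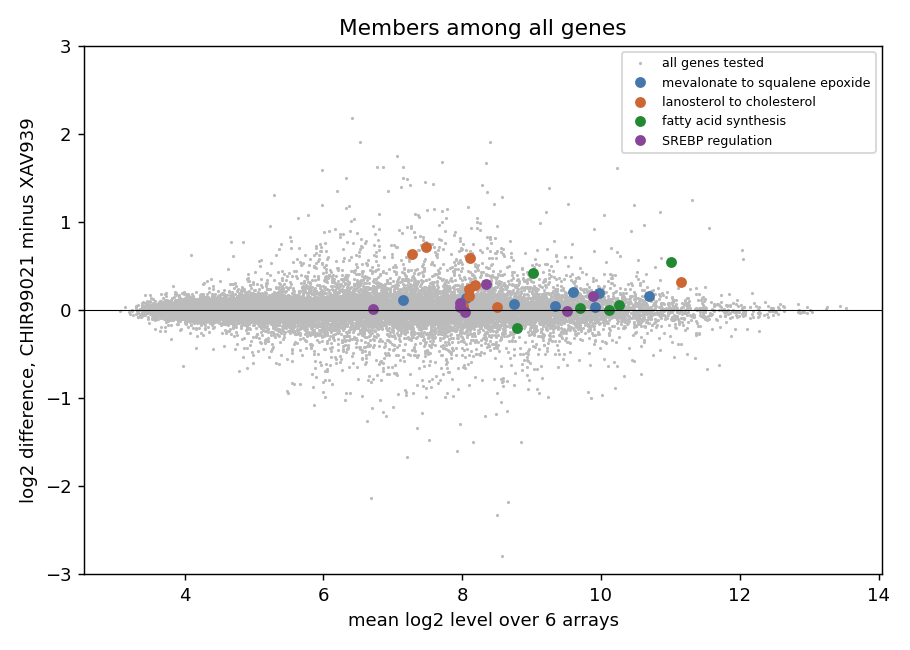
Log2 difference, CHIR99021 minus XAV939 (y axis), against mean log2 level over 6 arrays (x axis) for all 19937 genes in grey and the 30 measured members in colour by stage. The members have mean levels of 6.72 to 11.15, above the median of all genes, and their differences lie well inside the extremes of the array.

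Genes of the same pathways outside the 31 were counted beside them, and differences in share between the lists were not tested. Of 18 measured other genes of sterol and isoprenoid metabolism, 2 (11.1%) rose and none fell in limma (3 at an unadjusted p below 0.05, 1 of them lower). These were Npc2, a lysosomal sterol-binding protein, by 0.43 ± 0.07, and Coq2, an enzyme of ubiquinone synthesis, by 0.22 ± 0.06 (adjusted p = 0.0330, lost in 7 of 15 alternatives, of which 5 each left out 1 array). Lbr, a nuclear envelope protein with the same reductase activity as Tm7sf2, had levels of 10.97, 10.99 and 10.93 with CHIR99021, against 11.05, 11.21 and 11.22 with XAV939. Its difference of -0.20 ± 0.06 did not pass (limma adjusted p = 0.0770), was opposite in sign to that of Tm7sf2, and was singled out after its values were seen.

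Among 9 measured other genes of SREBP processing, 1 (11.1%) rose and none fell (2 at an unadjusted p below 0.05 in limma, both higher). The gene was Paqr3, a Golgi protein that anchors SCAP and SREBP, by 0.25 ± 0.05 (adjusted p = 0.0128, and 0.0545 without CHIR99021 replicate 2). Among 26 other genes of fatty acid and glycerolipid synthesis, 1 rose and 1 fell, a share of 7.69% called, near the 9.65% of all genes. Elovl7, an elongase of long saturated chains, rose by 0.52 ± 0.06 (1.43-fold, limma adjusted p = 2.34e-04). Elovl4, an elongase of very long chains, fell by 0.46 (1.37-fold, limma adjusted p = 0.00505).

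Sterol receptor targets moved both ways. Of 6 measured genes for LXR receptors and their targets, 3 rose (50%) and 1 fell (16.7%), against 5.31% and 4.34% of all genes. Lpcat3, which remodels phospholipids with polyunsaturated chains, rose by 0.48 ± 0.05, the cholesterol exporter gene Abca1 by 0.35 ± 0.06 and the lipid carrier gene Apoe by 0.29 ± 0.05. The exporter gene Abcg1 fell by 0.40, with levels of 6.80, 6.87 and 6.79 with CHIR99021, against 7.31, 7.18 and 7.16 with XAV939. Nr1h3, which encodes LXRα, differed by -0.071 ± 0.057 and did not pass.

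Markers of feeder fibroblasts, cells with which the stem cells were maintained, were counted beside the members. Whether these genes mark feeder cells alone was not tested. Of 15 such genes, 6 rose, 9 did not pass and none fell (7 at an unadjusted p below 0.05 in limma, 1 of them lower). The share called higher was 40%, against 5.31% of all genes. Those that rose were Col1a1 (1.05 ± 0.06), Tagln (0.67 ± 0.07), Pdgfrb (0.59 ± 0.05), Col1a2 (0.40 ± 0.06), Fbln2 (0.36 ± 0.07) and Acta2 (0.35 ± 0.05). The sum of the 15 genes' unlogged levels was 3003 to 3276 with CHIR99021, against 2200 to 2262 with XAV939. This sum adds levels of different probe sets, and Tagln, Acta2 and Col1a1 made up 89.1% of its difference. The other 12 markers summed to 790 to 811 with CHIR99021, against 671 to 734 with XAV939. Twist1 differed by -0.19 ± 0.08 (adjusted p = 0.173). No marker is listed at 0 on this scale, which does not show that a gene was expressed, as no detection call was analysed. Of the 15 markers, 6 lay below the median level of all genes and the rest above it. Tagln, Acta2 and Col1a1 stood at level percentiles of 94.8, 92.3 and 74.0. The 3 dimmest markers, Dcn, Lum and Postn, had mean log2 levels of 4.42, 4.05 and 4.27. Their level percentiles were 15.8, 7.69 and 12.4, and they differed by 0.025, 0.061 and 0.034. The part of feeder cells in the sterol and lipid results was not tested, and in bulk RNA fewer cells of a type and less RNA per cell cannot be told apart.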

How the data were processed

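The authors deposited log2 values of 6 arrays by probe set, computed with RMA per the submitters' processing notes. Neither its version nor a genome build is given in the sources used here. RMA normalises between arrays and tends to compress differences of weak signals. For arrays, their number limits the precision, and no detection call or scan batch was analysed here.

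Of 34760 probe sets, 21640 named 1 gene in the platform annotation, 1321 named several and 11799 have no name here. Each gene was represented by its single-gene probe set with the highest mean, giving 19937 genes. CHIR99021 minus XAV939 was fitted with limma 3.58.1 (lmFit, eBayes) in R 4.3.3 over all genes, with Benjamini-Hochberg adjustment, a threshold of 0.05, 4 residual and 6.15 prior degrees of freedom, and 95% intervals from the moderated errors. With 3 arrays a side, the smallest exact permutation p is 0.1, so that test was not used. The procedure was tested on simulated data with planted differences and noise drawn independently for each gene. Shifts shared by many genes of an array were not simulated, so that run does not cover them. Plots were drawn with matplotlib 3.10.9.

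The members and lists were chosen with earlier results of these data known, so no list received a set test. All measured members are named, and of each other list every gene past the threshold, up to 6. Alternatives were array centring, quantile normalization, a filter at the 50th percentile of level, probe set averaging, testing all probe sets, trended and robust eBayes, array weights, the replicate block and leaving out each array.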

Additional observations from a re-analysis of the deposited data

How the results depend on the processing

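Of 435 values of counts and medians under 15 alternatives, 390 kept within 1.5 times the main count or within the spread between arrays. This overstates stability, since some medians could not move. The trended and robust fits, the replicate block, the filter on level and testing all probe sets left the members' log2 differences unchanged. A drop from 9 to 6 members higher also counted as kept. Leaving out 1 array gave 1254 to 2247 genes called (1924 with all), 528 to 1117 called lower (866), 3 to 7 cholesterol genes higher (6), and 0 to 1 members lower (0), which was Acaca of the fatty acid steps (0 to 1). It gave 1 to 2 other sterol genes higher and 0 to 1 lower, 0 to 2 other SREBP processing genes higher, 0 to 1 stem cell markers lower (2), and a median log2 difference of the cholesterol genes of 0.11 to 0.20. The lowest total came without CHIR99021 replicate 2. Testing all probe sets gave 698 higher, 3 cholesterol genes higher, 1 other sterol gene higher and 0 stem cell markers lower, with more features tested. Array weights gave 1409 lower, 4 other fatty acid genes higher, and 1 each lower among members, fatty acid steps and other sterol genes. Quantile normalization gave 3 other fatty acid genes higher and the same 3 lower counts of 1. The filter on level gave 3 other fatty acid genes higher and 1 member lower, of the fatty acid steps (1). The trended fit gave 2 other fatty acid genes higher and 1 other sterol gene lower. Probe set averaging gave 1 member lower, of the fatty acid steps (1), and a cholesterol median of 0.21. The cause of these shifts was not tested.

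The labels do not say whether the replicate numbers pair the arrays, and a few correlations between so few arrays cannot settle it. Deviations of same-numbered arrays correlated at -0.096, 0.060 and -0.14, and with the replicate block 1578 genes and 8 members higher were called (adjusted p = 0.0855 for Nsdhl, the member not called there), 1 other sterol gene higher and 0 stem cell markers lower.

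Directions turned for members that did not pass and lay near 0. Over the fits that each left out 1 array, the log2 difference ran from -0.037 to 0.085 for Idi1, -0.0020 to 0.072 for Sqle, -0.016 to 0.066 for Lss, -0.036 to 0.054 for Fasn, -0.011 to 0.053 for Elovl6, -0.018 to 0.062 for Srebf1, -0.033 to 0.023 for Srebf2, -0.058 to 0.0057 for Scap and -0.057 to 0.048 for Mylip. The turns came without XAV939 replicate 1 for Idi1, Sqle, Lss, Fasn, Elovl6, Srebf2 and Scap, without CHIR99021 replicate 1 or 2 for Fasn and Srebf2, without CHIR99021 replicate 3 for Srebf1, and without CHIR99021 replicate 1 or XAV939 replicate 2 for Mylip. With array weights it was -0.018 for Idi1, 0.027 for Fasn and 0.0081 for Scap.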
